A study of Mus musculus with 4 samples.

Results

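Rgs1, Rgs2, Rgs10 and Rgs16 are 4 of the 21 genes with a numbered Rgs symbol among the 32285 gene rows measured in intratumoral T cells of mice. They were selected by symbol, after earlier results on these cells were known, for how they differed between groups and between cells with little and much Ccl5. The values of those 2 contrasts are therefore given as a description, with no test. T cells sorted for CD3 came from subcutaneous tumors of Tsc2-deficient 105K cells grown in wild-type C57BL/6J mice, and the tumor cells carried either a control short hairpin (sh-NC) or a hairpin against B7-H3, sh-B7-H3 (1). Both groups share the same tumor line and the same host strain, and the knockdown is in the tumor cells, not in the T cells measured. Each group pooled 80 tumors and gave 2 libraries, numbered as replicates, in which RNA and antibody tags were counted in the same cells (CITE-seq). The sources used here describe the replicates both as 1 pool of a group's tumors and as 2 independent samples, so whether they hold different animals is not settled. The spread between them, and any p-value below, speaks of pooled libraries and may be technical, and 1 hairpin stands for the knockdown.

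RGS proteins (regulators of G-protein signaling) speed up the hydrolysis of GTP by the alpha subunits of heterotrimeric G proteins and so shorten the signal from the receptors above them. In T cells those receptors include the chemokine and sphingosine-1-phosphate receptors that guide migration, most of which couple to Gi proteins. RGS1 and RGS16 act mainly on Gi and Gq subunits and dampen responses to chemokines, RGS2 prefers Gq, and RGS10 is a small member that acts on Gi subunits.

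The 4 members, Rgs1 (ENSMUSG00000026358), Rgs2 (ENSMUSG00000026360), Rgs10 (ENSMUSG00000030844) and Rgs16 (ENSMUSG00000026475), are protein-coding genes on 2 chromosomes of GRCm38. Rgs1 (chromosome 1, 144242296 to 144249242, minus strand) and Rgs2 (chromosome 1, 143999338 to 144004161, minus strand) belong to a run of 5 Rgs genes, in the order Rgs2, Rgs13, Rgs1, Rgs21 and Rgs18, that spans 776 kb. Their 3 neighbours were almost silent in these cells, with 0 UMIs (unique molecular identifiers, one per captured transcript) of Rgs13, 0 of Rgs21 and 6 of Rgs18, against 17120 of Rgs1 and 3364 of Rgs2 in the same cells. Rgs16 lies farther along chromosome 1 (153740349 to 153745468, plus strand, 4797 UMIs) and Rgs10 on chromosome 7 (128373621 to 128418758, minus strand, 35293 UMIs). RefSeq promoters of GRCm38.p6, from 250 bases before to 50 bases after the start site, were held for 3 of the 4 members and are shown because Rgs2 and Rgs16 were higher, and Rgs10 lower, in cells with much Ccl5. They cover chr1:144004100-144004399 on the minus strand for Rgs2, chr1:153740103-153740402 on the plus strand for Rgs16 and chr7:128418123-128418422 on the minus strand for Rgs10. The Rgs10 window lies wholly within the gene span above, whose 5' end is at 128418758. It therefore belongs to a start site inside that span, and what follows on Rgs10 holds for that start site. Capitals mark TGACG, the core of the cAMP response element, and CCAAT, on either strand:
Rgs2: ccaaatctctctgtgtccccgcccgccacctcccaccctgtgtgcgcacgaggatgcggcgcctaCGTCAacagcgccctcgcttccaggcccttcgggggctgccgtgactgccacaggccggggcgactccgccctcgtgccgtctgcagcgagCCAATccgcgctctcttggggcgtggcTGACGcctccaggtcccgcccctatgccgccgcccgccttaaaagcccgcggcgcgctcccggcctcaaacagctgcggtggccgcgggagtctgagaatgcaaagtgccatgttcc
Rgs16: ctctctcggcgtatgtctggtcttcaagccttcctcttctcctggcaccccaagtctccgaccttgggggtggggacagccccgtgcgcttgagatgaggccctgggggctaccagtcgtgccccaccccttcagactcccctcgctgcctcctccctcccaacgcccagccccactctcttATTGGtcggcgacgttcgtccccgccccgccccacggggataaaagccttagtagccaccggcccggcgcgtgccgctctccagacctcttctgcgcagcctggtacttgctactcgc
Rgs10: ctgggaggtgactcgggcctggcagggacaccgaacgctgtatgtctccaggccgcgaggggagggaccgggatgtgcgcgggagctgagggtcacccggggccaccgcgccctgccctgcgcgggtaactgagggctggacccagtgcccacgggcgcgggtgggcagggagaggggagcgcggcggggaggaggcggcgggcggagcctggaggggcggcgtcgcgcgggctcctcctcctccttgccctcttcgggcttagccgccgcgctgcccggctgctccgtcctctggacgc
TGACG stood only in the promoter of Rgs2, at 185 bases before the start site on the minus strand and 67 bases before it on the plus strand, and 20.8% of the 32851 promoters in the table hold it at least once. CCAAT stood once in the promoters of Rgs2 (94 bases before the start) and Rgs16 (68 bases before it, minus strand) and not in that of Rgs10, against 37.4% of all promoters. The GC box GGGCGG stood 4 times in the promoter of Rgs2 and 2 times each in those of Rgs16 and Rgs10, against 35.7% of all promoters. None of the 3 held TGACTCA (the AP-1 site, 5.20% of promoters), TGACGTCA (the full cAMP element, which contains TGACG, 1.79%), GGAAA (the NFAT core, 61.3%) or TATAAAA (5.48%) in this window. All 3 were rich in G and C, at 70.0%, 66.0% and 76.0% for Rgs2, Rgs16 and Rgs10, against a median of 52.7% over the table.

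The 4 libraries held 7030 to 12112 called cells and 79224898 to 132820909 RNA UMIs, with a median of 6944 to 8618 UMIs per analysed cell. After the study's limits on detected genes and mitochondrial UMIs, 3499 to 7549 cells per library remained, and 3369 to 7509 of them held a UMI of Cd3d, Cd3e or Cd3g, as the sort for CD3 would give. B cell markers summed to at most 28.6 of every 1000000 UMIs and NK markers to at most 183 in any class. The libraries shared 17 to 35 cell barcodes pairwise, at most 0.427% of the smaller library. Cd276, the gene of B7-H3, had 9 to 11 UMIs per library, which checks nothing here because the hairpin acts in the tumor cells. Cells were called CD4, Foxp3 or CD8 by their RNA UMIs and each lineage was split at 20 Ccl5 UMIs, Ccl5 being a chemokine of effector and memory T cells, which made 6 classes. The share of cells with at least 20 Ccl5 UMIs was 7.37% and 9.03% of CD4 cells in the sh-NC libraries against 47.9% and 47.2% in the sh-B7-H3 (1) libraries. In CD8 cells it was 14% and 17.8% against 64.7% and 61.4%, and in Foxp3 cells 3.70% and 4.08% against 11% and 11.8%. With 10 to 19 Ccl5 UMIs, just under the limit, were 13 and 3 CD4 cells of sh-NC and 31 and 40 of sh-B7-H3 (1), and 43 and 58 CD8 cells against 24 and 43. In Foxp3 cells the limit cut through the distribution, with 22, 19, 22 and 35 cells just under it and only 18, 17, 33 and 39 above it, of which 14, 13, 16 and 19 had 20 to 39. Levels below are UMIs of a class summed in each library and scaled to a total of 1000000 (CPM), and they are compared mainly within a gene.

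**Figure D1:**
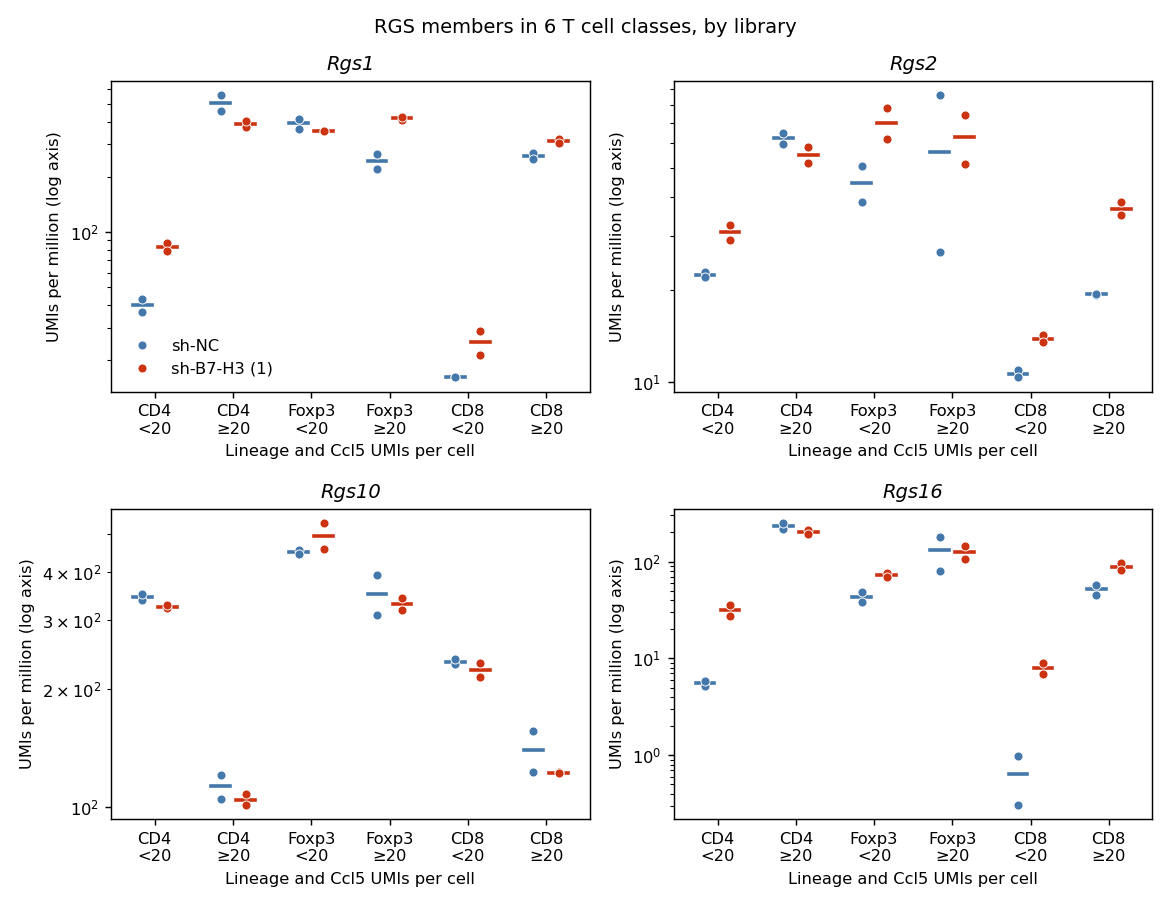
Levels of the 4 members in CPM (log axes) in the 6 classes, with 1 point per library and a bar at the mean of the 2 libraries of a group. Rgs16 in CD8 cells with under 20 Ccl5 UMIs ran from 0.305 to 0.973 in the sh-NC libraries and from 6.98 to 8.91 in the sh-B7-H3 (1) libraries, the widest gap on the plot, while Rgs10 differed little between groups in any class.

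Rgs1 ranged over more than an order of magnitude between classes. In sh-NC libraries it was lowest in CD8 cells with under 20 Ccl5 UMIs, at 16.2 and 16.1 CPM, and next in CD4 cells with under 20, at 36.6 and 42.8. It stood at 267 and 222 in Foxp3 cells with at least 20 (18 and 17 cells only), at 269 and 248 in CD8 cells with at least 20, at 415 and 366 in Foxp3 cells with under 20 and at 455 and 558 in CD4 cells with at least 20. The first 2 of these classes lay apart from each other and from the rest, whereas the CD8 and Foxp3 classes with at least 20 Ccl5 UMIs overlapped. In Foxp3 cells, which are mostly regulatory T cells, Rgs1 was thus already high without Ccl5.

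The group difference in Rgs1 had no single direction. In CD4 cells with under 20 Ccl5 UMIs it was 86.6 and 78.6 CPM in the sh-B7-H3 (1) libraries, a log2 difference of 1.07 (SE 0.08) from sh-NC in the edgeR fit. Among CD4 cells with at least 20 it was lower than in sh-NC, at 376 and 402, a log2 difference of -0.33 (SE 0.07). Neither pair of groups overlapped, and of all tested genes 24.7% separated upward in the former class and 28.0% downward in the latter. By bin of Ccl5 UMIs the CD4 cells with under 20 differed less (sh-B7-H3 (1) against sh-NC, mean ± SD, n = 2 libraries). Rgs1 was 37.6 ± 16.4 against 34.5 ± 5.31 CPM with 0, and 69.1 ± 1.41 against 52.9 ± 3.97 with 1 to 4. With 5 to 19 it was 291 ± 43.9 against 329 ± 87.4, over 136 and 37 cells. CD8 cells with under 20 reached 21.4 and 28.7 CPM (log2 difference 0.74, SE 0.12), and CD8 cells with at least 20 reached 320 and 307 (0.30, SE 0.05). Foxp3 cells with under 20 lay just below sh-NC, at 357 and 357 (-0.15, SE 0.08). In Foxp3 cells with at least 20 the sh-B7-H3 (1) libraries had 407 and 426 CPM over 33 and 39 cells, and this class was not fitted because sh-NC held fewer than 20 cells per library. Its log2 ratio of mean CPM was 0.77, and -0.03 with a Ccl5 limit of 40. Myeloid markers in the same class summed to 54.9 and 17.7 CPM in sh-NC and 634 and 602 in sh-B7-H3 (1), with 6 of 10 higher and Csf1r at 0 in all libraries, and their part in the value was not tested.

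Rgs16 had the widest range of the 4. In sh-NC libraries it was almost absent from CD8 cells with under 20 Ccl5 UMIs, at 0.305 and 0.973 CPM from 8 and 22 UMIs, and low in CD4 cells with under 20, at 5.21 and 5.83. Foxp3 cells with under 20 followed at 38.2 and 47.9 and overlapped with CD8 cells with at least 20, at 57.2 and 45.6. CD4 cells with at least 20 were highest, at 215 and 251. The Foxp3 cells with at least 20 gave 180 and 79.8 CPM from 23 and 9 UMIs, too few to place.

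In 4 of the 6 classes both sh-B7-H3 (1) libraries lay above both sh-NC libraries for Rgs16. Of all tested genes 17.4% did so in CD8 cells with under 20 Ccl5 UMIs and 24.7% in CD4 cells with under 20. The shares were 24.5% in CD8 cells with at least 20 and 26.5% in Foxp3 cells with under 20. CD8 cells with under 20 Ccl5 UMIs gave 8.91 and 6.98 CPM, a log2 difference of 3.71 (SE 0.34). With 8 and 22 UMIs in sh-NC this value hung on single libraries, the log2 ratio of CPM being 3.63 with all of them, 3.03 without sh-NC replicate 1, 4.70 without sh-NC replicate 2 and 2.48 with no upper limit on detected genes. CD4 cells with under 20 gave 35.5 and 27.5, a log2 difference of 2.51 (SE 0.15), with a log2 ratio of 1.91 at a Ccl5 limit of 10. CD8 cells with at least 20 gave 96.2 and 80.9 (0.80, SE 0.09) and Foxp3 cells with under 20 gave 75.2 and 68.8 (0.73, SE 0.14). The order turned in CD4 cells with at least 20, with 213 and 192 CPM in sh-B7-H3 (1), a log2 difference of -0.16 (SE 0.08). Foxp3 cells with at least 20 overlapped, at 144 and 106.

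Rgs2 was low everywhere and its group difference was widest in CD8 cells with at least 20 Ccl5 UMIs. There the sh-NC libraries had 19.3 and 19.4 CPM and the sh-B7-H3 (1) libraries 38.6 and 35.1, a log2 difference of 0.94 (SE 0.14). Foxp3 cells with under 20 went from 38.8 and 50.6 to 78.2 and 61.9 (0.63, SE 0.15), CD4 cells with under 20 from 22.9 and 22.0 to 32.6 and 29.1 (0.46, SE 0.11) and CD8 cells with under 20 from 10.95 and 10.4 to 14.2 and 13.5 (0.44, SE 0.14). The groups did not overlap in any of these classes, where 24.5%, 26.5%, 24.7% and 17.4% of all tested genes separated upward, in the same order. CD4 cells with at least 20 went from 59.8 and 65.0 to 58.4 and 51.7 (-0.14, SE 0.14), and Foxp3 cells with at least 20 overlapped.

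Rgs10 differed between lineages more than between groups. It was highest in Foxp3 cells with under 20 Ccl5 UMIs, at 455 and 443 CPM in sh-NC and 533 and 456 in sh-B7-H3 (1), and lowest in CD4 cells with at least 20, at 121 and 105 against 108 and 101. CD4 cells with under 20 gave 339 and 350 against 322 and 328 and CD8 cells with under 20 gave 231 and 238 against 233 and 214. CD8 cells with at least 20 gave 156 and 123 against 123 and 122. Its fitted group differences ran only from -0.16 (SE 0.07) in those CD8 cells to 0.12 (SE 0.07) in Foxp3 cells with under 20.

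**Figure D2:**
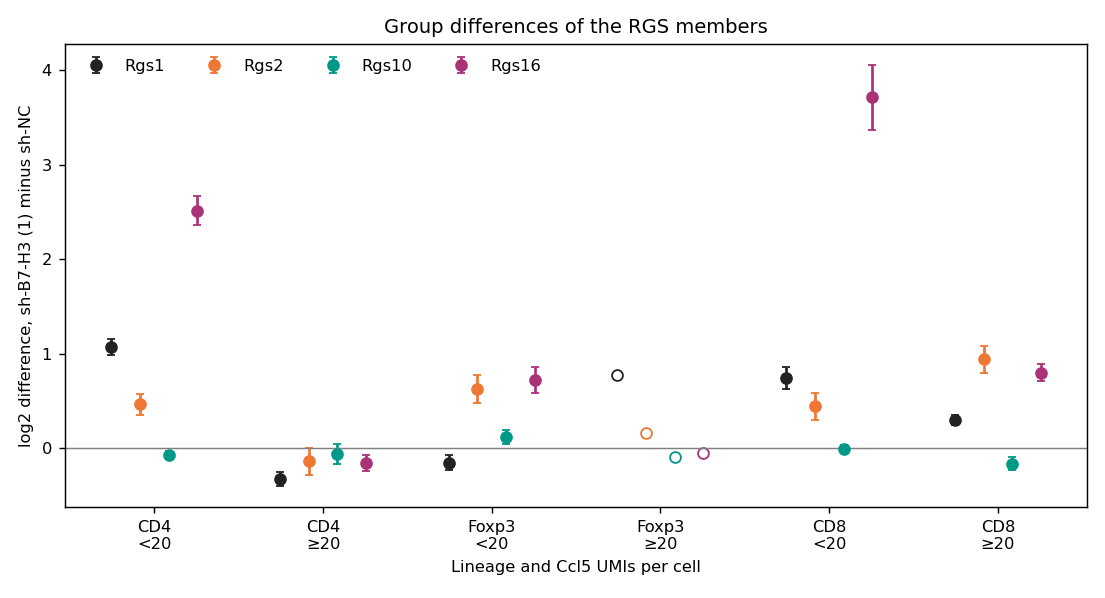
Log2 difference between sh-B7-H3 (1) and sh-NC for each member in each class, where filled points are edgeR estimates with bars of 1 standard error and open points, in the class too small to fit, are ratios of mean CPM. Rgs16 stands at 3.71 and 2.51 in the CD8 and CD4 classes with under 20 Ccl5 UMIs, and all 4 members lie below 0 in CD4 cells with at least 20.

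Over the 24 pairs of member and class, both sh-B7-H3 (1) libraries lay above both sh-NC libraries in 13, below them in 5, and the groups overlapped in 6. Over all 59586 pairs of tested gene and class the libraries separated in the same way upward in 21.2% and downward in 28.2%. The members were chosen on this contrast, so the background is given for scale only and nothing is read from it. By the stricter rule of a test, 2.99% of all genes tested passed an adjusted p of 0.05 and a log2 difference of 1 in CD4 cells with under 20 Ccl5 UMIs, 1.2% in CD4 cells with at least 20, 1.99% in CD8 cells with under 20, 2.27% in CD8 cells with at least 20 and 0.813% in Foxp3 cells with under 20 (edgeR quasi-likelihood, Benjamini-Hochberg).

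Other RNA moved with the groups inside the same classes, and its part in the members' differences was not tested. In CD4 cells with under 20 Ccl5 UMIs the 6 effector genes other than Ccl5 summed to 81.4 and 75.3 CPM in sh-NC and 567 and 544 in sh-B7-H3 (1), with 5 of 6 genes higher in both libraries, and the 4 naive markers fell from 1119 and 1112 to 872 and 855, all 4 lower. In CD8 cells with under 20 the effector genes went from 555 and 562 to 730 and 749 and the naive markers from 959 and 963 to 773 and 758. In CD4 cells with at least 20 the effector genes were at 7701 and 7130 against 7464 and 7089, with 1 of 6 higher and 3 lower. For CD8 cells with at least 20 the naive markers were at 264 and 236 against 107 and 124, all 4 lower, and the effector genes at 4892 and 4956 against 5781 and 5632, with 4 of 6 higher and 2 lower. Foxp3 cells with under 20, where Rgs2 and Rgs16 were higher, had 625 and 471 CPM of the effector genes against 312 and 446 in sh-NC, with 5 of 6 higher, and 365 and 382 of the naive markers against 618 and 546, all 4 lower. The sum of 10 stress genes such as Fos and Jun was lower in both sh-B7-H3 (1) libraries in all 6 classes, but its genes were divided. It was at 514 and 540 CPM against 848 and 844 in CD8 cells with under 20, where 9 of 10 genes were lower, and at 970 and 953 against 1193 and 1188 in CD4 cells with under 20, where 4 were lower and 1 higher. In both CD4 and CD8 cells with at least 20, 5 were lower and 1 higher, and in Foxp3 cells with under 20, at 1147 and 1161 against 1283 and 1318, 4 were lower and 4 higher, of which Hspa1a passed the test. Myeloid markers were higher in CD4 cells, at 186 and 166 against 97.9 and 84.4 in CD4 cells with under 20, where 7 of 10 were higher and none was at 0, and at 121 and 135 against 47.7 and 38.2 in CD4 cells with at least 20, again with 7 of 10 higher. In CD8 cells with under 20 they were 51.6 and 53.2 in sh-NC and 230 and 66.7 in sh-B7-H3 (1), with 6 of 10 higher in both libraries, in CD8 cells with at least 20 85.8 and 162 against 165 and 216, with 5 of 10 higher, and in Foxp3 cells with under 20 the groups overlapped, at 246 and 93.1 against 142 and 358. Barcodes with no Cd3 RNA and at least 10 myeloid UMIs had 84.0 to 132 CPM of Rgs2 and 586 to 875 of Rgs10. Without cells holding 2 or more myeloid UMIs the log2 ratio of Rgs2 was 0.95 in CD8 cells with at least 20, against 0.93 with them, and 0.24 in CD8 cells with under 20, against 0.38 with them.

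Barcodes that were not called as cells and held 1 to 99 RNA UMIs show which free RNA each library carried. In them Rgs16 stood at 18.99 and 16.6 CPM in sh-NC and 54.9 and 46.6 in sh-B7-H3 (1), Rgs1 at 65.6 and 69.6 against 113 and 129, Rgs2 at 18.7 and 18.6 against 29.5 and 25.4, and Rgs10 at 278 and 279 against 243 and 238. In CD8 cells with no Ccl5 UMI, the class that should hold the least of the inducible members, Rgs16 had 0.363 ± 0.238 CPM in sh-NC and 2.97 ± 0.0890 in sh-B7-H3 (1) (mean ± SD, n = 2 libraries), both below the near-empty barcodes of the same libraries. Rgs1 in the same cells had 13.5 ± 0.0295 against 9.65 ± 0.289, the reverse order of the near-empty barcodes. The part of free RNA in the low values was not tested.

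The second contrast the members were selected on, Ccl5, split them into 3 that were higher and 1 that was lower with more Ccl5. In every library Rgs1 was higher in CD4 cells with at least 20 Ccl5 UMIs than in those with under 20, by 12.4-fold and 13.0-fold in sh-NC and 4.34-fold and 5.12-fold in sh-B7-H3 (1). In CD8 cells the folds were 16.6, 15.5, 15.0 and 10.7 in the same order. Rgs16 was 41.2-fold and 43.0-fold higher in CD4 cells of sh-NC and 6.00-fold and 6.96-fold higher in those of sh-B7-H3 (1), where its level in cells with under 20 was higher than in sh-NC. In CD8 cells its folds were 187, 46.9, 10.8 and 11.6, the first 2 resting on 8 and 22 UMIs in the sh-NC cells with under 20. Rgs2 was 1.76-fold to 2.96-fold higher over both lineages and all libraries. Rgs10 was lower in all 4 libraries, at 0.300 to 0.356 of the level in CD4 cells with under 20 and 0.514 to 0.676 in CD8 cells. The fitted log2 differences in CD4 and CD8 cells were 2.65 (SE 0.23) and 3.54 (SE 0.10) for Rgs1, 3.62 (SE 0.41) and 4.43 (SE 0.41) for Rgs16, 0.82 (SE 0.13) and 0.83 (SE 0.11) for Rgs2 and -1.93 (SE 0.06) and -1.12 (SE 0.07) for Rgs10. The median gene stood at 0.30 and 0.31 on the plain CPM scale and near 0 in the fit, so the fitted values are relative to that shift. With a Ccl5 limit of 40 the log2 ratio of CPM went from 3.55 to 2.92 for Rgs16 in CD4 cells, from 4.03 to 3.32 for Rgs16 in CD8 cells and from 3.80 to 3.21 for Rgs1 in CD8 cells. The background was wide, with 19.8% of genes in CD4 cells and 15.9% in CD8 cells passing at a log2 difference of 1.

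Foxp3 cells did not follow this pattern for Rgs1. In the sh-NC libraries Rgs1 was lower in Foxp3 cells with at least 20 Ccl5 UMIs, at 0.643 and 0.605 of the level in those with under 20, and in sh-B7-H3 (1) slightly higher, at 1.14-fold and 1.19-fold. The log2 ratio of Rgs1 over all libraries was -0.18, and -0.90 with stricter lineage limits. It was 0.01 with no upper limit on detected genes, 0.11 with a Ccl5 limit of 40 and 0.07 with a limit of 20 per 7000 UMIs. Rgs16 was higher in all 4 libraries, by 1.55-fold to 4.72-fold, Rgs10 lower in all 4, and Rgs2 was higher in 1 of 4. With 17 to 39 cells per library in the higher class these values were not fitted.

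**Figure D3:**
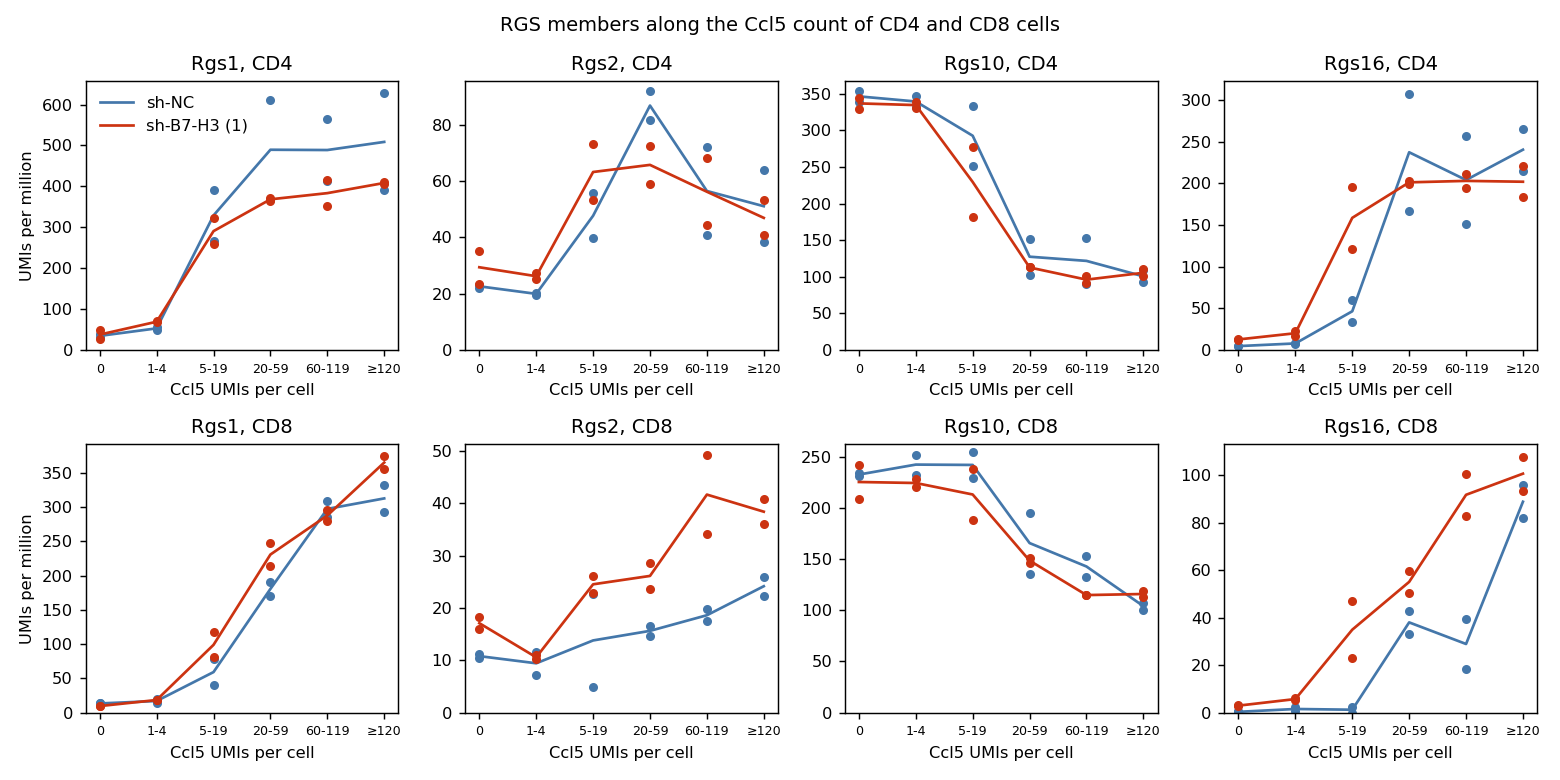
Levels in CPM (linear axes from 0) of each member in CD4 cells (top) and CD8 cells (bottom) over 6 bins of Ccl5 UMIs per cell, with 1 point per library and a line through the group mean. Rgs1 in CD4 cells steps up between 1 to 4 and 5 to 19 UMIs, from 52.9 to 329 in sh-NC and from 69.1 to 291 in sh-B7-H3 (1), and changes little from 20 UMIs on, while in CD8 cells it climbs to the last bin.

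Finer bins of Ccl5 showed where each member changed. In CD4 cells Rgs1 went from 34.5 ± 5.31 CPM with no Ccl5 UMI to 52.9 ± 3.97 with 1 to 4, 329 ± 87.4 with 5 to 19 and 489 ± 172 with 20 to 59 in sh-NC (mean ± SD, n = 2 libraries). In sh-B7-H3 (1) the same bins gave 37.6 ± 16.4, 69.1 ± 1.41, 291 ± 43.9 and 368 ± 5.74, so the groups overlapped in each of these bins but that of 1 to 4. Rgs16 in CD4 cells was higher in sh-B7-H3 (1) within each of the low bins, at 12.7 ± 0.490 against 4.66 ± 0.418 with no Ccl5 UMI, 20.1 ± 4.17 against 7.87 ± 1.40 with 1 to 4 and 159 ± 52.6 against 46.5 ± 18.5 with 5 to 19, the last over 136 and 37 cells. In CD8 cells with 60 or more but under 120 Ccl5 UMIs Rgs16 had 91.8 ± 12.4 CPM in sh-B7-H3 (1) and 28.9 ± 14.9 in sh-NC, whereas with 120 or more the groups stood at 101 ± 10.2 and 88.8 ± 9.78. Rgs1 in CD8 cells was at 288 ± 10.9 against 297 ± 15.99 with 60 or more but under 120, and at 365 ± 13.1 against 313 ± 27.1 with 120 or more. Rgs10 in CD4 cells of sh-NC was at 340 ± 11.3 with 1 to 4 UMIs, 293 ± 58.2 with 5 to 19 and 127 ± 34.5 with 20 to 59. In sh-B7-H3 (1) it was at 335 ± 6.34, 230 ± 68.3 and 113 ± 0.0308 in the same bins, so there it also fell before 20 UMIs.

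Over whole lineages the group difference joins the level in each class and the share of cells in it. Rgs1 in all CD4 cells was 63.0 and 83.2 CPM in sh-NC and 227 and 231 in sh-B7-H3 (1), 3.13-fold higher. Weighting the sh-B7-H3 (1) cells to the sh-NC mix of the 6 Ccl5 bins gave 77.8 and 60.3 CPM, which overlapped with sh-NC (0.945 of its mean), whereas weighting by the 2 Ccl5 classes alone gave 1.43-fold. In CD8 cells Rgs1 was 43.9 and 47.6 against 195 and 179 CPM, 4.08-fold higher, and 1.08-fold at the sh-NC mix of bins against 1.32-fold by classes. Rgs16 was 5.20-fold higher in CD4 cells and 7.85-fold in CD8 cells, and 1.298-fold and 2.11-fold at the sh-NC mix of bins, or 2.01-fold and 2.63-fold by classes. Rgs2 was 1.68-fold and 2.28-fold higher, and 1.22-fold and 1.58-fold at that mix. Rgs10 was at 0.670 and 0.748 of sh-NC, and at 0.973 and 0.954 at the mix. In Foxp3 cells Rgs16 was at 1.70-fold before and 1.52-fold after the weighting by bins, Rgs2 at 1.53-fold and 1.18-fold, Rgs10 at 1.07-fold and 1.16-fold and Rgs1 at 0.946 and 0.943.

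The share of cells with a UMI was compared beside the levels. To compare cells of unequal depth the share was computed as the chance of at least 1 UMI after drawing 2000 UMIs from each cell, which left out 0 to 23 cells of a class as too shallow. Among CD4 cells with at least 20 Ccl5 UMIs it was 50.7% and 54.2% for Rgs1 in sh-NC and 41.5% and 46.2% in sh-B7-H3 (1), against 78.3%, 86.1%, 72.2% and 76.6% at full depth. Rgs16 reached 29.0% and 32.4% against 29.7% and 27.4% in the same cells, so that its shares overlapped where its levels did not, and at full depth it was at 57.1% ± 2.44 in sh-NC and 58.1% ± 1.70 in sh-B7-H3 (1). Among CD8 cells with at least 20 it reached 9.54% and 7.54% against 14.1% and 12.5%. In CD8 cells with no Ccl5 UMI, taken as the background class, Rgs1 was at 2.47% and 2.31% in sh-NC and 1.93% and 2.36% in sh-B7-H3 (1), and Rgs16 at 0.0436% and 0.112% against 0.638% and 0.844%, at median depths of 8992, 9297, 8608 and 8383 UMIs. The CD4 cells with at least 20 had 6494, 7020, 6972 and 6905. For Rgs2 the CD8 cells with under 20 Ccl5 UMIs gave 2.09% and 1.90% against 2.99% and 2.49%. Most of the sh-NC cells among them had no Ccl5 UMI, so no separate background was at hand, and expression cannot be told apart from free RNA there.

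Cells with an Rgs1 UMI had more Rgs16 than cells without one in 20 of the 24 pairs of class and library, and more Rgs2 in 21. In the reverse splits cells with an Rgs16 UMI had more Rgs1 in 17 of 24 and those with an Rgs2 UMI in 22. Between Rgs2 and Rgs16 either split gave only 13 of 24. Cells with an Rgs10 UMI had more Rgs1 in 10, more Rgs2 in 9 and more Rgs16 in 5. Rgs10 itself was higher in cells with a UMI of Rgs1, Rgs2 or Rgs16 in 14, 17 and 9. Other genes were not split in this way, so these counts have no background. Among CD4 cells with under 20 Ccl5 UMIs, those with an Rgs1 UMI held 25.2 and 30.0 CPM of Rgs16 in sh-NC against 2.10 and 1.89 in those without, and 122 and 85.8 against 12.7 and 14.5 in sh-B7-H3 (1). Among CD8 cells with at least 20 the same split gave 71.4 and 50.2 against 35.0 and 38.9 in sh-NC and 102 and 88.9 against 82.3 and 61.6 in sh-B7-H3 (1). In CD4 cells with at least 20 the order was mixed in sh-NC, with 235 against 144 in replicate 1 and 244 against 294 in replicate 2, where 22 cells lacked Rgs1. The other exceptions were Foxp3 cells with under 20 in sh-B7-H3 (1) replicate 1, at 69.5 against 85.4, CD8 cells with under 20 in sh-NC replicate 1, at 0 against 0.342, and Foxp3 cells with at least 20 in sh-NC replicate 2, at 52.9 against 135 over 17 cells.

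The selection of the members did not use the antibody tags. It did use Ccl5, which also differed between the CD39 arms inside the classes, as given below, so these tests are not independent of the selection. CD39, the ectonucleotidase encoded by Entpd1, is found on regulatory T cells and on T cells after long stimulation. Cells were ranked by the tag's share of all tag counts of the cell, within each library and Ccl5 class, and the highest 1 in 3 cells (the CD39-high arm) were compared with the lowest 1 in 3 (the CD39-low arm) over 4 library pairs, so both arms held the same mix of Ccl5 classes. Rgs1 and Rgs16 were higher in the high arm in all 3 lineages and all 4 libraries. Of the 12 tests of a member in a lineage, 7 passed as higher (Rgs1 and Rgs16 in all 3 lineages and Rgs2 in 1) and 1 as lower at an adjusted p under 0.05 and a log2 difference of 0.5. Of all genes 3.93%, 2.43% and 20.5% passed in either direction in CD4, CD8 and Foxp3 cells.

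In Foxp3 cells Rgs16 was 10.5, 18.2, 32.6 and 21.5 CPM in the low arm and 113, 114, 136 and 130 in the high arm, with no overlap (libraries in the order sh-NC 1, sh-NC 2, sh-B7-H3 (1) 1 and 2). The log2 difference was 2.30 (SE 0.19, adjusted p = 2.81e-06, edgeR). Rgs1 went from 247, 282, 175 and 224 to 607, 512, 476 and 434 CPM, again without overlap, a log2 difference of 0.77 (SE 0.12, adjusted p = 0.000416, edgeR). Rgs2 rose by 0.84 on the log2 scale (SE 0.28, adjusted p = 0.0430, edgeR). Rgs10 passed as lower, at a log2 difference of -0.52 (SE 0.12, adjusted p = 0.00744, edgeR), but on the plain CPM scale it was higher in 2 of 4 libraries, the median gene standing at 0.37 on that scale. In this split 20.5% of 6636 genes passed, so 4 of 4 members passing is read against a wide background.

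**Figure D4:**
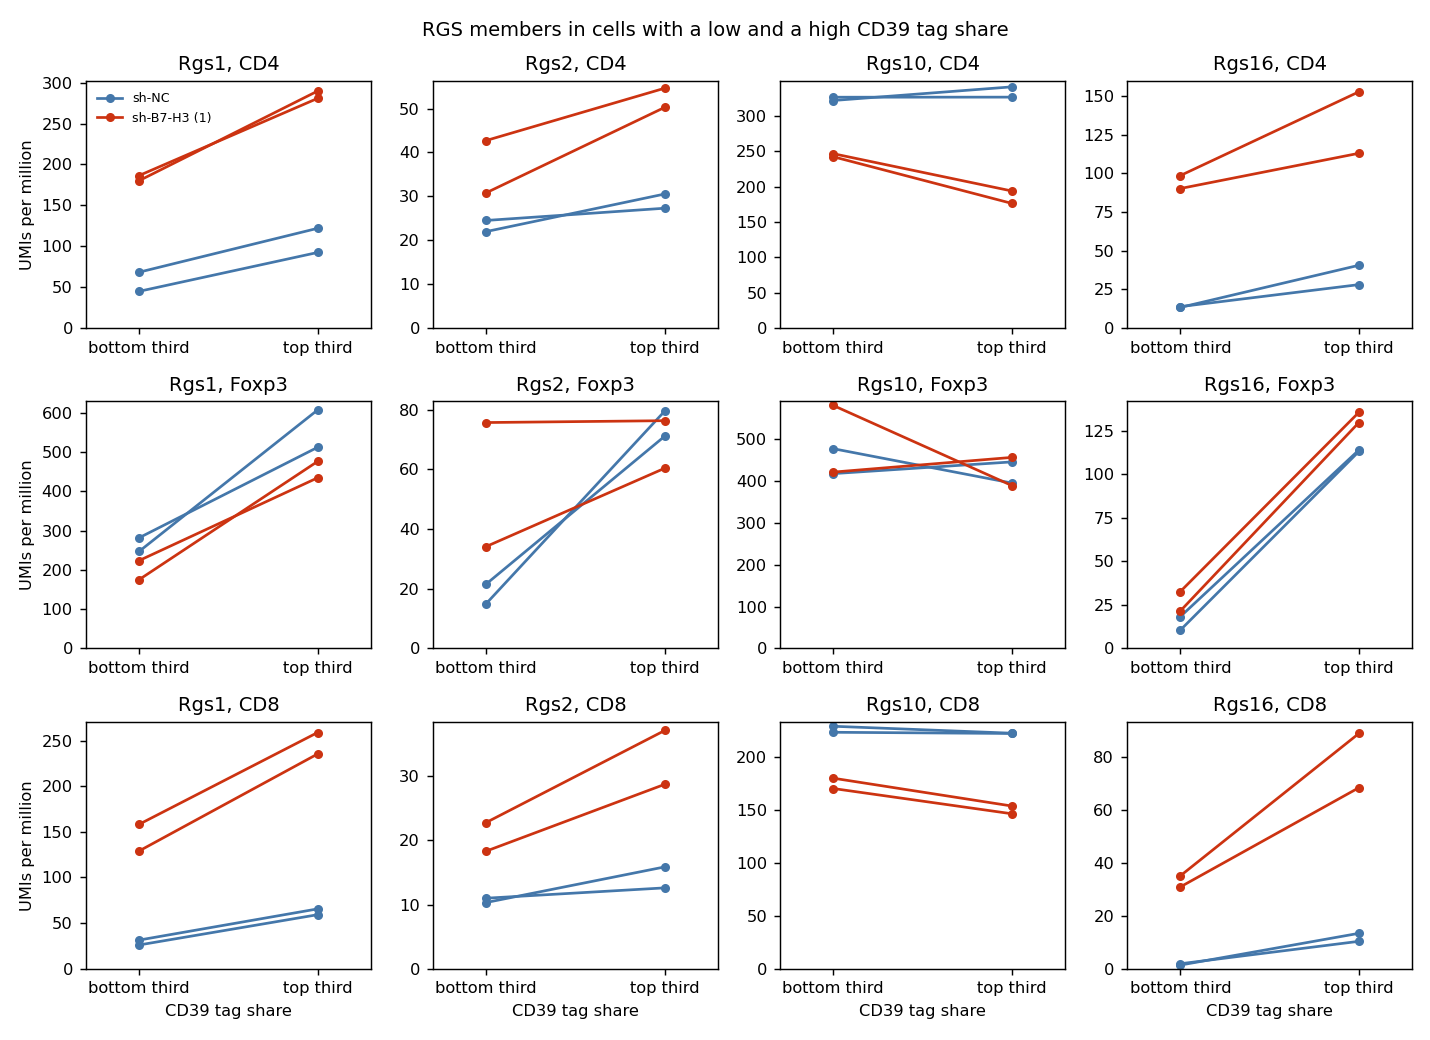
Levels in CPM (linear axes from 0) of each member in cells of the CD39-low and CD39-high arms, with 1 line per library. Rgs16 in Foxp3 cells goes from 10.5 to 32.6 in the low arm to 113 to 136 in the high arm in the 4 libraries, and Rgs10 in Foxp3 cells shows crossing lines.

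In CD8 cells the low arm had 1.91, 1.40, 35.2 and 31.0 CPM of Rgs16 and the high arm 10.4, 13.4, 89.1 and 68.6, higher in each library. The log2 difference was 1.497 (SE 0.18, adjusted p = 3.58e-05, edgeR). Rgs1 went from 26.1, 31.5, 158 and 129 to 59.2, 65.6, 259 and 235 CPM, a log2 difference of 0.86 (SE 0.07, adjusted p = 4.78e-07, edgeR). Here 2 of 4 members passed, against 2.43% of all genes. In CD4 cells Rgs1 went from 44.8, 68.2, 186 and 180 to 92.3, 122, 281 and 290 CPM (log2 difference 0.64, SE 0.06, adjusted p = 6.65e-06, edgeR) and Rgs16 from 13.8, 13.3, 98.6 and 90.2 to 28.0, 40.5, 153 and 113 (0.64, SE 0.13, adjusted p = 0.00597, edgeR). These 2 of 4 stand against 3.93% of all genes. Rgs2 was higher in all 4 libraries in both lineages but stayed under the log2 limit, at 0.29 (adjusted p = 0.112, edgeR) in CD4 and 0.48 (adjusted p = 0.0101, edgeR) in CD8 cells. Rgs10 did not pass in either, at -0.27 (adjusted p = 0.0226, edgeR) and -0.17 (adjusted p = 0.0843, edgeR).

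The arms also differed in Ccl5 within the classes, by a log2 difference of 0.37 in CD4, 0.93 in CD8 and 1.49 in Foxp3 cells, and its part in these results was not tested. Entpd1 RNA, which checks the tag, was higher by 0.80, 1.32 and 2.38. Median tag counts ran from 11 to 117 in the low arms and 28.5 to 433 in the high arms, with a mean of 1.41 to 2.06 counts for the isotype tags, and median RNA depth was lower in the high arm in each of the 12 pairs of arms. The call for Rgs16 in CD4 cells was lost with DESeq2 (log2 difference 0.75, adjusted p = 0.104), with a Ccl5 limit of 10 (0.56), with stricter lineage limits (0.44) and without sh-NC replicate 2 (0.47). The call for Rgs2 in Foxp3 cells was lost without either sh-NC replicate (0.47 and 0.70) and that for Rgs10 without sh-NC replicate 2 (-0.45) or sh-B7-H3 (1) replicate 1 (-0.41). Rgs1 in CD4 and Foxp3 cells was lost only with stricter lineage limits among 16 alternatives, where its log2 difference stayed positive at 0.46 and 0.42, Rgs2 and Rgs10 in Foxp3 cells passed in 9 of 16 each, and Rgs1 in CD8 cells and Rgs16 in CD8 and Foxp3 cells passed in all 16, the log2 difference of Rgs16 in Foxp3 cells being 1.34 with stricter lineage limits.

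CD69, an early activation antigen that also marks tissue residence, gave the opposite sign for Rgs16. In CD4 cells Rgs16 was 21.9, 30.5, 161 and 121 CPM in the low arm and 12.1, 14.9, 92.0 and 96.0 in the high arm, lower in each library, a log2 difference of -0.63 (SE 0.09, adjusted p = 2.05e-05, edgeR), with 1 of 4 members passing against 1.04% of all genes. This call was lost with no upper limit on detected genes (-0.44) and with stricter lineage limits (-0.49). In Foxp3 cells it fell by 0.69 on the log2 scale (SE 0.15, adjusted p = 0.0170, edgeR), 1 of 4 members against 1.19%, and this call was lost without sh-NC replicate 1 (-0.64) or 2 (-0.65), with DESeq2 and with 2 of the cell limits. In CD8 cells 0 of 4 passed in edgeR or DESeq2, against 0.205% of genes, with 3 of 4 at an unadjusted p under 0.05 in edgeR and 0 in DESeq2. The arms differed weakly in the tag, with medians of 10 to 19 against 17 to 26 counts, and Cd69 RNA was only 0.03 to 0.39 higher in the high arm. Ccl5 was lower in the high arm of Foxp3 cells (-0.55).

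The other 17 Rgs genes were mostly silent, with 10 under 1 CPM and 4 between 1 and 10 on average over the 24 class sums. The 3 above 10 CPM were Rgs3, Rgs19 and Rgs14, of which RGS14 and RGS19 act on Gi subunits and RGS3 on Gi and Gq. Rgs3 followed Rgs1 with Ccl5, from 22.9 to 112 CPM in CD4 cells (log2 difference 2.01, SE 0.09, adjusted p = 3.55e-08, edgeR) and from 20.2 to 90.2 in CD8 cells (1.83, SE 0.07, adjusted p = 1.81e-08, edgeR). Rgs19 and Rgs14 were lower with Ccl5 at a log2 difference under 1, by -0.82 and -0.75 in CD4 cells and -0.62 and -0.44 in CD8 cells. Rgs8, under 10 CPM with 186 UMIs in all and named after its values were seen, passed as higher with Ccl5 in CD4 cells and between groups in CD8 cells with at least 20 Ccl5 UMIs. Between groups Rgs19 was lower at a log2 difference of -0.28 (adjusted p = 0.0132, edgeR) in CD4 cells with under 20, -0.69 (adjusted p = 0.0177, edgeR) in those with at least 20 and -0.32 (adjusted p = 0.0366, edgeR) in CD8 cells with at least 20. Between groups Rgs3 stayed under the log2 limit of 1. Its libraries separated upward in 5 of 6 classes, beside 21.2% of all pairs of gene and class. In CD4 cells with under 20 Ccl5 UMIs it had 17.6 and 16.2 CPM in sh-NC and 24.9 and 32.8 in sh-B7-H3 (1) (0.80, adjusted p = 3.97e-05, edgeR). In CD8 cells with at least 20 it had 70.2 and 78.0 against 103 and 110 (0.54, adjusted p = 9.39e-10, edgeR).

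Other genes of the pathway were taken from fixed lists. Of 24 G-protein subunit genes 15 to 17 were tested per class, and the only call between groups over the 5 fitted classes was Gna15, higher in CD4 cells with under 20 Ccl5 UMIs. With Ccl5, 4 of 17 in CD4 cells and 5 of 17 in CD8 cells passed as higher, beside 10.6% and 9.01% of all genes, Gnb4, Gnb5, Gna15 and Gng2 in both. In each lineage 1 of 17, Gng12, passed as lower, beside 9.25% and 6.89%. Among 10 other regulators (receptor kinases, arrestins and G-protein modulators) 8 to 10 were tested per class, of which 1 passed the adjusted p between groups (in CD4 cells with under 20, below the log2 limit), and Arrb1, an arrestin, was lower with Ccl5 in both lineages. Among the receptors 6 of 30 tested passed between groups as higher in CD4 cells with under 20 Ccl5 UMIs and 4 of 26 in CD8 cells with under 20. Beside them 302 of 10820 and 207 of 11079 of all genes passed as higher. In the CD4 and CD8 cells with at least 20, 4 of 25 and 4 of 27 passed as lower, beside 51 of 9221 and 101 of 10008 of all genes. Foxp3 cells with under 20 had 2 of 28 higher and 1 lower, beside 56 higher and 19 lower of 9229 genes. With Ccl5, 9 passed as higher and 8 as lower of 26 in CD4 cells, and 12 as higher and 7 as lower of 27 in CD8 cells, beside 19.8% and 15.9% of all genes in either direction. The receptors were not tested as a list. The median log2 group difference of the tested receptors was 0.31 in CD4 cells with under 20, -0.17 in CD4 cells with at least 20, 0.17 in CD8 cells with under 20, -0.01 in CD8 cells with at least 20 and 0.11 in Foxp3 cells with under 20, where that of all genes was 0.00218 to 0.00334.

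Of the receptors that passed in at least 2 group comparisons in 1 direction, Cxcr6, the receptor for Cxcl16, was at 22.7 and 23.4 CPM in CD4 cells with under 20 Ccl5 UMIs of sh-NC and at 138 and 138 in those of sh-B7-H3 (1) (log2 difference 2.60, adjusted p = 5.56e-21, edgeR). Adgrg1, an adhesion receptor of cytotoxic cells, was below 1 CPM in sh-NC and at 10.1 and 9.05 in sh-B7-H3 (1) in the same CD4 cells (4.11, adjusted p = 9.65e-10, edgeR). Gpr183, the oxysterol receptor that guides cells within lymphoid tissue, fell in CD8 cells with at least 20, from 52.2 and 53.8 to 19.2 and 17.4 (-1.52, adjusted p = 3.19e-29, edgeR). Gpr18 fell in the same cells, from 31.7 and 31.6 to 14.5 and 15.6 (-1.05, adjusted p = 2.94e-10, edgeR). Cx3cr1, the fractalkine receptor, rose in CD4 cells with under 20 from 3.20 and 3.84 to 14.04 and 11.3 (1.85, adjusted p = 3.57e-07, edgeR). These differences were not alike in all classes. In CD4 cells with at least 20 they were 0.22 for Cxcr6 (adjusted p = 0.0115, edgeR), 0.23 for Adgrg1 (0.294) and -0.16 for Cx3cr1 (0.799). In CD8 cells with under 20 they were 0.02 for Gpr183 (adjusted p = 0.926, edgeR) and -0.09 for Gpr18 (0.512).

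The genes whose pattern over the 24 class sums was most like each member were found by Pearson's r of log2(CPM + 1) over the 2216 genes that averaged 50 CPM or more, leaving out mitochondrial, ribosomal protein and T cell receptor segment genes and unnamed gene models. The sums share libraries and lineages, so r is a description. For Rgs16 they were Bcl2a1d (r = 0.983), an anti-apoptotic gene with near-identical copies whose reads may be split, then Ptms (0.977), Pdcd1, which encodes PD-1 (0.968), Entpd1, which encodes CD39 (0.968), and Anxa2 (0.967). For Rgs1 they were Ttc39b (0.966), Mxd4 (0.961), Camk2n1 (0.960), Prr13 (0.959) and Ptms (0.957). For Rgs2 they were Cd6 (0.928), Cd44 (0.920), Helz (0.920), Mrps21 (0.909) and Samsn1 (0.906). For Rgs10 they were H3f3a (0.935), Ramp1 (0.932), Chd3 (0.927), Ighm (0.924) and Il7r, the receptor for interleukin 7 (0.920). At the other end Rgcc was lowest for both Rgs1 (-0.885) and Rgs16 (-0.895), followed by Commd8 and Gnl3 for Rgs1 and Snhg12 and Snrpd3 for Rgs16. Bola2 (-0.859), Fam189b and Rack1 were lowest for Rgs2, and Prf1, which encodes perforin (-0.944), Runx3 (-0.913) and Pik3cd (-0.906) for Rgs10. Among the members r was 0.931 for Rgs1 and Rgs16, 0.855 for Rgs2 and Rgs16, 0.840 for Rgs1 and Rgs2, and -0.166, 0.0938 and -0.275 for Rgs10 with Rgs1, Rgs2 and Rgs16.

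Some cells lay outside the 6 classes. In called cells with more than 3000 detected genes and no excess of mitochondrial UMIs, 887 to 2105 per library, Rgs1 was 60.1 and 56.7 CPM in sh-NC and 125 and 115 in sh-B7-H3 (1), Rgs16 7.92 and 9.61 against 38.3 and 39.9, Rgs2 19.4 and 18.7 against 32.6 and 28.3, and Rgs10 275 and 268 against 240 and 237. In CD3 cells with both Cd4 and Cd8 RNA, 144 to 245 per library, which may be pairs of cells, Rgs1 was 55.9 and 49.9 against 120 and 174. CD3 cells with neither Cd4, Cd8 nor Foxp3 RNA above the limits, 546 to 1432 per library, gave 51.5 and 52.1 against 74.7 and 93.9 for Rgs1 and 7.21 and 8.27 against 21.4 and 18.6 for Rgs16.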

How the data were processed

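All 4 libraries of T cells sorted for CD3 were analysed, 2 per group, by the group and replicate number in their labels. The authors deposited UMI counts per gene and antibody tag (Chromium 3' v3.1), made with Cell Ranger on mm10 and analysed in Seurat 4.0.0 per the submitters' notes. The headers name Cell Ranger 6.1.1 for the filtered and 4 for the raw matrices. No other value column was used.

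Cells with 200 to 3000 detected genes, at most 5% mitochondrial UMIs and at least 1 Cd3 UMI were kept. CD4 cells had at least 1 Cd4 UMI, under 3 Cd8 UMIs and no Foxp3, CD8 cells at least 3 Cd8 UMIs, no Cd4 and no Foxp3, and Foxp3 cells at least 1 Foxp3 UMI and under 3 Cd8 UMIs. No doublet caller was applied in the values given, cells with Cd4 and Cd8 RNA being left out by the lineage limits, and removal of simulated doublets was an alternative. The study's own doublet removal and clusters were not rebuilt. UMIs were summed per library and class and scaled to a total of 1000000 (CPM).

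Sums were fitted with edgeR 4.0.16 (R 4.3.3) by the quasi-likelihood test, TMM scaling and filterByExpr, with library as a block where arms shared libraries and Benjamini-Hochberg adjustment over all genes of a fit. Standard errors are the log2 difference over the root of F. Classes with under 20 cells in a library were not fitted. Calls needed an adjusted p under 0.05 and a log2 difference of 1, or 0.5 for tags. The fits were checked on simulated counts. DESeq2 1.42.0, other scalings, filters, Ccl5 limits and each library left out were alternatives. Standard errors come from the fit, whose estimate of spread borrows from all genes fitted. They can be smaller than the spread between a member's own libraries, which is given by the values per library. SDs rest on the 2 libraries of a group, and neither settles the variation between animals. The thinned shares of cells are expected values.

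The members and gene lists were chosen with earlier results of these data known. All 4 members are named, other Rgs genes at a mean of 10 CPM or more, the 5 most and 3 least like genes per member, and up to 8 pathway genes that passed in at least 2 group comparisons in 1 direction. Some items are not reported here, but counts over gene lists and over all tag splits include them. Neighbouring Rgs genes and genes listed for a short count were named after their values were seen. Promoters are those of RefSeq, GRCm38.p6, and gene coordinates those of GENCODE for GRCm38.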

Additional observations from a re-analysis of the deposited data

Results flagged for a closer look

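In several pairs of classes both sh-B7-H3 (1) libraries lay above both sh-NC libraries in one class and below them in the other, and none of these differences between classes was tested. For Rgs16 the log2 ratios of CD4 cells with under and with at least 20 Ccl5 UMIs lay 2.72 apart, and those of CD8 and CD4 cells with at least 20 lay 0.987 apart. For Rgs1 CD4 cells with under 20 lay 1.44 above CD4 cells with at least 20 and 1.19 above Foxp3 cells with under 20. Within the finer bins of Ccl5 UMIs given above, Rgs1 differed less between groups in those CD4 cells with under 20. Its Foxp3 cells with at least 20, with 17 to 39 cells per library, lay 1.15 above CD4 cells with at least 20 and 0.899 above Foxp3 cells with under 20. Its CD8 cells lay 0.764 above Foxp3 cells among those with under 20 and 0.656 above CD4 cells among those with at least 20. For Rgs2 CD4 cells with under 20 lay 0.642 above those with at least 20, and CD8 cells with at least 20 lay 1.11 above CD4 cells with at least 20. The fitted Rgs2 difference in those CD4 cells with at least 20 was only -0.14 (SE 0.14). For Rgs10 Foxp3 cells with under 20 lay 0.225 above CD4 cells with under 20, with small fitted differences of 0.12 (SE 0.07) and -0.07 (SE 0.04).

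In near-empty barcodes, which the comparisons do not use, Rgs16 was higher in both sh-B7-H3 (1) libraries by 2.86-fold, Rgs1 by 1.79-fold and Rgs2 by 1.47-fold. Rgs10 was lower there, at 243 and 238 CPM against 278 and 279 in sh-NC. How many of all genes separated in this way was not computed, so nothing is read from these values.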

How the results depend on the processing

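Of the 24 group differences of the members 14 pointed up, and 13 to 16 did under the alternatives, including each library left out (13 to 16) and the replicate block (14). Of the 12 Ccl5 differences 8 pointed up, and 7 to 9 did. A difference changed sign in 21 cases, 20 of them in Foxp3 cells, most of which rest on the 17 to 39 cells with at least 20 Ccl5 UMIs, and none had a log2 difference above 0.77 to begin with. Of 36 tag tests of members, over all tags split, 10 passed, 5 with stricter lineage limits, 7 with DESeq2 and 7 to 10 with a library left out. Among the 10, 4 were in Foxp3 cells split by CD39, where 20.5% of all genes passed. In the other CD39 and CD69 splits 0.205% to 3.93% of all genes passed. Other Rgs genes gave 4 calls, 7 with a Ccl5 limit of 40 and 4 to 5 with a library left out. Genes called between groups numbered 956, 390 with DESeq2, 684 to 815 with a library left out and 962 with the replicate block, and over the tag splits 2278, 1200 with DESeq2 and 1562 to 2366 with a library left out. Genes called with Ccl5 numbered 3594, and 3480 to 3745 with a library left out. Replicate numbers share no stated batch, and deviations of the same number correlated by -0.0435 to 0.00909 over genes. Whether the libraries of a group hold different animals is not settled by the sources used here.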
